A study of Homo sapiens with 4 samples.

Results

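The ephrin ligands are the 8 human genes EFNA1 to EFNA5 and EFNB1 to EFNB3, chosen by symbol from a table of 58365 gene rows. Each symbol had 1 row. Expression was measured by RNA-seq in cells derived from H1, an established human embryonic stem cell line, at day 2 of hematopoietic differentiation. All cells received 40 ng/ml activin A and 50 ng/ml BMP4, growth factors that induce mesoderm, according to the sample labels (the study's methods give these 2 doses the other way round). The DMSO group (2 libraries) was the control, and the IWP2 group (2 libraries) also received IWP2, a small molecule that blocks the lipid modification Wnt proteins need for secretion. No source used here gives the dose of IWP2 for these libraries. The comparison asked which genes depended on Wnt secretion during the switch from pluripotency to mesoderm. The labels do not say whether the libraries of a group came from separate cultures, so the p-values measure only the spread between these libraries.

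Ephrins are cell-surface proteins that bind Eph receptor tyrosine kinases on neighboring cells. Ephrin-A proteins are held in the membrane by a lipid (GPI) anchor and mostly bind EphA receptors, whereas ephrin-B proteins cross the membrane, carry a cytoplasmic tail and mostly bind EphB receptors. Signals run both ways, forward into the receptor cell and in reverse into the ephrin cell, and the outcome is often repulsion, sorting or boundary formation, as between somites and between arteries and veins.

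Ephrin transcripts changed in composition rather than together. With IWP2, EFNB2 and EFNA5 rose 2.47-fold and 2.42-fold, EFNA2 and EFNB1 fell to 0.353 and 0.417 of their control levels, and EFNA1, EFNA3, EFNA4 and EFNB3 did not pass the test. Levels are given as FPKM (fragments scaled by transcript length and by the mapped fragments of the library), and folds are ratios of group means (n = 2). Differences were tested with limma on log2(FPKM + 1) over 15980 rows with a mean of at least 0.5 FPKM, and a gene was called at a Benjamini-Hochberg adjusted p below 0.05. All 8 ligands passed that filter, with means between percentiles 40.2 and 65.1 of the tested rows. Thus 4 of 8 ligands were called, against 13.2% of all tested rows, 2 of them higher (5.81% of rows) and 2 lower (7.35% of rows). The median log2 difference was 0.33 over the ligands and -0.01 over all tested rows.

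**Figure D1:**
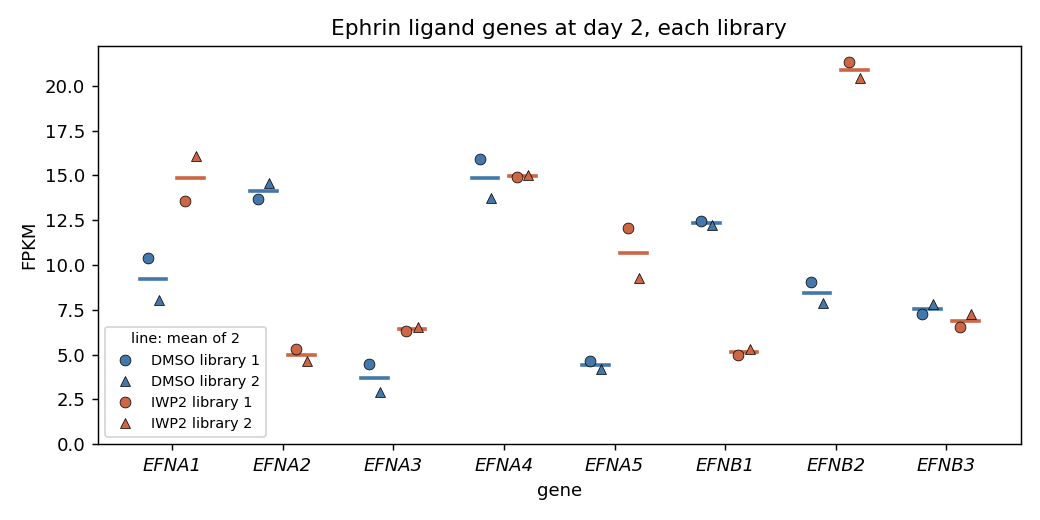
FPKM (y axis) of the 8 ephrin ligand genes (x axis) in each DMSO library (blue) and IWP2 library (orange), with a line at the mean of 2. EFNB2 and EFNA5 sit higher in both IWP2 libraries, EFNA2 and EFNB1 sit lower, and the groups overlap for EFNA4 and EFNB3.

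The groups did not overlap for 6 of the 8 ligands, against 58.6% of tested rows, so non-overlap alone was common across this table. Because cells were measured in bulk, fewer cells of a type and less RNA per cell cannot be told apart. With only 2 libraries per group the calls were fragile to the loss of any library. EFNB2 alone stayed called without DMSO library 1, and no ligand was called without DMSO library 2, IWP2 library 1 or IWP2 library 2, although each called ligand kept its direction in all 4 of these fits.

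The promoters of the 4 called ligands are shown because these genes moved in opposite directions within each class. Each sequence is the 250 bases before the RefSeq transcription start (GRCh38.p14), read 5′ to 3′ on the gene's strand, with CCAAT boxes (CCAAT or ATTGG) and GC boxes (GGGCGG or CCGCCC) in capitals. Windows are chr13:106535663-106535912 (minus strand) for EFNB2, chrX:68828771-68829020 (plus) for EFNB1, chr5:107670938-107671187 (minus) for EFNA5 and chr19:1285623-1285872 (plus) for EFNA2.
EFNB2: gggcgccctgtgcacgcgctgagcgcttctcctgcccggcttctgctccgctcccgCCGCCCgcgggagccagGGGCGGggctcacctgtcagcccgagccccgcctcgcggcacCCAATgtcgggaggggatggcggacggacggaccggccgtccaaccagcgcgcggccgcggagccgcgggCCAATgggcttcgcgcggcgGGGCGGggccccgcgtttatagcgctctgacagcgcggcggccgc
EFNB1: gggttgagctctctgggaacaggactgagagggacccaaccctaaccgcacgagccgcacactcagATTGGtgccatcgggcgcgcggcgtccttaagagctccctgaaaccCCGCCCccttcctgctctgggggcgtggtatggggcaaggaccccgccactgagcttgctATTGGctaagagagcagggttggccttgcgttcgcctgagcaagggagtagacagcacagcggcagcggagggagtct
EFNA5: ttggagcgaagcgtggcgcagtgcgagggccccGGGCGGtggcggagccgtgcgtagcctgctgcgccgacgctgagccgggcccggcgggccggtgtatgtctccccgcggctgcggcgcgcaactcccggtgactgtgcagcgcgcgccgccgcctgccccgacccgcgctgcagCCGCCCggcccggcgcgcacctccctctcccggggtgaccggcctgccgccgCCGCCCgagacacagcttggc
EFNA2: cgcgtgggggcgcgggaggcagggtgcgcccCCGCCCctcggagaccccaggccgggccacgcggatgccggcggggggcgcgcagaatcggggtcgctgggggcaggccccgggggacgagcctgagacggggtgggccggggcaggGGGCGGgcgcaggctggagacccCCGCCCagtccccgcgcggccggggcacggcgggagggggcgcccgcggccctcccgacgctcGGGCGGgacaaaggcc

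Of the 8 ligands, 7 had a promoter entry (EFNB3 had no match). A CCAAT box occurred 2 times in EFNB2 (65 and 135 bases before the start), 2 times in EFNB1 (78 and 184 bases) and 1 time in EFNA4 (67 bases), and 32.0% of 35114 promoters of the same length held it. A GC box occurred in all 7 windows and in 42.6% of all promoters. The TCF/LEF core (CTTTGA or TCAAAG, the letters read by the nuclear partners of beta-catenin) was in none of the 7 windows and in 11.2% of all promoters. The T-box core (TCACACC or GGTGTGA) was also in none, against 2.8% of all. Shares this low give few matches in 7 windows, so these absences do not set the ligands apart from other promoters. GC content ran from 58.4% in EFNA4 to 84.0% in EFNA2, with a median of 58.0% over all promoters. All 7 windows were thus above that median. The motif shares were not matched for GC content, so the GC box cannot be read as a trait of the ligands. No motif marked the ligands that rose from those that fell, since the CCAAT box was held by EFNB2, which rose, by EFNB1, which fell, and by EFNA4, which was not called. The RefSeq start lay 548 bases upstream of the gene's edge in the deposited table for EFNB2 and 281 bases upstream for EFNA2, so the windows of these 2 genes do not adjoin the measured annotation. For EFNA1 the start lay 416 bases inside the gene, and for the other 4 windows it lay within 42 bases of the edge.

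Among the ephrin-B ligands, EFNB2 was below EFNB1 with DMSO and above it with IWP2, where EFNB1 was also below EFNB3. EFNB2 (ENSG00000125266.6, chr13:106489731-106535114, minus strand) encodes ephrin-B2, the arterial partner of EphB4 and a ligand in somite boundaries and vessel sprouting. Its level was 9.05 and 7.87 FPKM in the DMSO libraries and 21.3 and 20.4 FPKM in the IWP2 libraries. Both IWP2 libraries stood above both DMSO libraries by more than the spread within either group. The log2 difference was 1.21 (SE 0.11, 95% interval 0.93 to 1.497, adjusted p = 0.0047).

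EFNB1 (ENSG00000090776.5, chrX:68828997-68842147, plus strand) encodes ephrin-B1, which is needed for craniofacial patterning and for cell sorting between expressing and non-expressing cells. It was at 12.5 and 12.3 FPKM in the DMSO libraries and at 4.999 and 5.32 FPKM in the IWP2 libraries. The libraries of each group lay close together and the groups were well apart. The log2 difference was -1.12 (SE 0.11, 95% interval -1.40 to -0.84, adjusted p = 0.0055). As a result the ratio of EFNB2 to EFNB1 was 0.725 and 0.642 in the DMSO libraries and 4.26 and 3.84 in the IWP2 libraries, so the more abundant ephrin-B transcript differed between the groups.

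EFNB3 (ENSG00000108947.4, chr17:7705202-7711378, plus strand) encodes ephrin-B3, best known as a midline repellent for axons. Its values were 7.26 and 7.83 FPKM in the DMSO libraries and 6.53 and 7.28 FPKM in the IWP2 libraries, which overlapped. The log2 difference of -0.11 had a 95% interval of -0.42 to 0.20 (adjusted p = 0.60).

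Among the ephrin-A ligands, EFNA5 and EFNA2 moved in opposite directions in the same way. EFNA5 (ENSG00000184349.12, chr5:107376889-107670895, minus strand) spans 294 kb, the longest of the 8 genes, and encodes ephrin-A5, a guidance cue in the retina and brain that also binds EphB2. It was at 4.64 and 4.20 FPKM with DMSO and at 12.1 and 9.30 FPKM with IWP2. Every IWP2 value was above every DMSO value, although the IWP2 libraries differed from each other more than the DMSO libraries did. The log2 difference was 1.10 (SE 0.16, 95% interval 0.69 to 1.504, adjusted p = 0.015), and without a filter on low values EFNA5 was no longer called (adjusted p = 0.085).

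EFNA2 (ENSG00000099617.3, chr19:1286154-1300237, plus strand) encodes ephrin-A2, which shares its role in retinal mapping with ephrin-A5. It was at 13.7 and 14.6 FPKM in the DMSO libraries and at 5.32 and 4.65 FPKM in the IWP2 libraries. This was the largest fall among the 8 ligands, with a log2 difference of -1.34 (SE 0.12, 95% interval -1.65 to -1.03, adjusted p = 0.0045). The ratio of EFNA5 to EFNA2 was 0.339 and 0.288 in the DMSO libraries against 2.26 and 2.00 in the IWP2 libraries. The order within this pair was thus reversed, as it was for EFNB2 and EFNB1.

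The remaining ephrin-A genes, EFNA4, EFNA3 and EFNA1, lie in this order on the plus strand of chromosome 1 within 71.1 kb (chr1:155063731-155134857). EFNA1 (ENSG00000169242.11, chr1:155127460-155134857) encodes ephrin-A1, the main ligand of EphA2. It was at 10.4 and 8.06 FPKM with DMSO and at 13.6 and 16.1 FPKM with IWP2. The groups did not overlap, but the log2 difference of 0.64 (SE 0.16, 95% interval 0.23 to 1.04) missed the threshold (adjusted p = 0.065) and passed it only after quantile normalization (0.71, adjusted p = 0.049).

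EFNA3 (ENSG00000143590.13, chr1:155078872-155087538) encodes ephrin-A3, a ligand of EphA4 on glia. It was the lowest ligand with DMSO, at 4.49 and 2.90 FPKM, and was at 6.34 and 6.52 FPKM with IWP2. The DMSO libraries differed from each other by far more than the IWP2 libraries, and the log2 difference of 0.68 (SE 0.20, 95% interval 0.18 to 1.18, adjusted p = 0.090) was not called.

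EFNA4 (ENSG00000243364.7, chr1:155063731-155069553) encodes ephrin-A4. With 15.9 and 13.7 FPKM in the DMSO libraries and 14.9 and 15.0 FPKM in the IWP2 libraries, it was nearly level, and the interval of its log2 difference ran from -0.27 to 0.30 (estimate 0.02, adjusted p = 0.94). A readthrough gene, AL691442.1, overlaps both EFNA4 and EFNA3 on the same strand and was listed at practically 0 in every library. AL138689.1, a row within an intron of EFNB2, was listed at 0.125 to 0.576 FPKM. How fragments shared between overlapping genes were assigned was not tested, so the values of EFNA4, EFNA3 and EFNB2 carry that uncertainty.

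The order of the ligands by level therefore differed between the groups. With DMSO it was EFNA4, EFNA2, EFNB1, EFNA1, EFNB2, EFNB3, EFNA5 and EFNA3, from a mean of 14.8 down to 3.70 FPKM. The ranges of neighbors overlapped for EFNA4 and EFNA2, for EFNA1 and EFNB2, and for EFNA5 and EFNA3. With IWP2 the order was EFNB2, EFNA4, EFNA1, EFNA5, EFNB3, EFNA3, EFNB1 and EFNA2, from 20.9 down to 4.99 FPKM, and neighbors overlapped for EFNA4 and EFNA1 and for EFNB1 and EFNA2. EFNB2 thus stood 5th with DMSO and 1st with IWP2, and EFNA2 stood 2nd with DMSO and last with IWP2.

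The summed level of the 8 ligands moved little beside these opposite changes. It was 77.9 and 71.4 FPKM in the DMSO libraries and 85.1 and 84.6 FPKM in the IWP2 libraries. Both IWP2 libraries were above both DMSO libraries in this sum and within each class, which was not tested. The ephrin-B class made up 37.0% and 39.1% of the sum with DMSO and 38.6% and 39.1% with IWP2, which overlapped. Within that class the share of EFNB2 in the whole ligand sum was 11.6% and 11.0% with DMSO against 25.0% and 24.2% with IWP2, while that of EFNB1 was 16.0% and 17.2% against 5.88% and 6.29%. Within the ephrin-A class EFNA2 held 17.6% and 20.4% with DMSO against 6.26% and 5.49% with IWP2, and EFNA5 held 5.96% and 5.88% against 14.2% and 11.0%. These shares describe transcripts per length and were not tested.

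**Figure D2:**
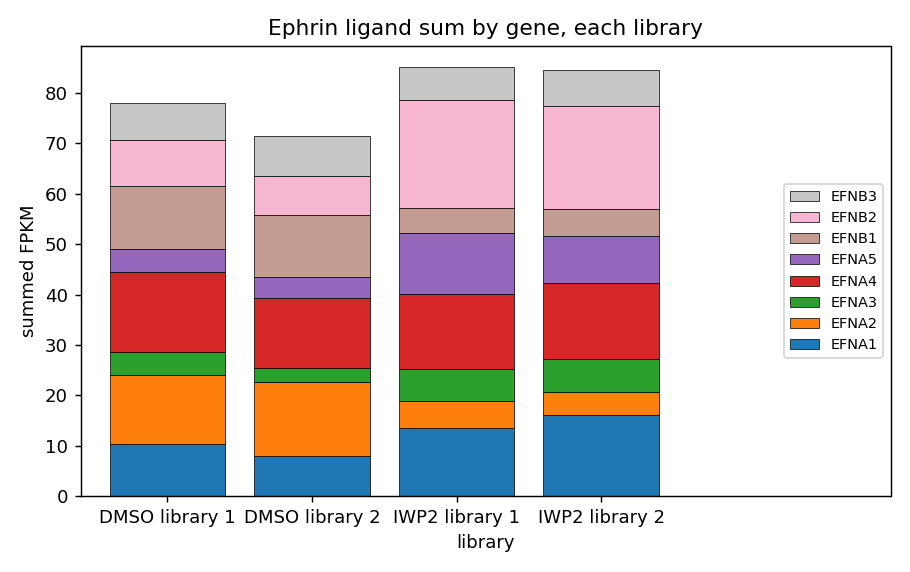
Summed FPKM (y axis) of the ephrin ligands in each library (x axis), stacked by gene. The sum lies between 71.4 and 85.1 in all 4 libraries, while the EFNB2 and EFNA5 layers are thicker and the EFNA2 and EFNB1 layers thinner with IWP2.

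The Eph receptors, the binding partners of the ligands, also moved in both directions. Of 14 receptor genes, 10 passed the filter, 3 rose (5.81% of all tested rows), 4 fell (7.35% of rows) and 3 were not called, which is 7 of 10 beside 13.2% of all tested rows. EPHA3, EPHA5, EPHA6 and EPHA10 stayed below it. The median log2 difference of the tested receptors was 0.15.

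The receptors that fell with IWP2 were EPHA4, EPHB2, EPHB3 and EPHA2. EPHA4, which encodes a receptor of unusual breadth that binds ephrin-A ligands as well as ephrin-B2 and ephrin-B3, was at 14.6 and 16.7 FPKM with DMSO and at 1.45 and 0.908 FPKM with IWP2 (log2 difference -2.94, SE 0.17, adjusted p = 0.0014). EPHB2, encoding a receptor of ephrin-B ligands that also takes ephrin-A5, fell from 16.2 and 19.1 FPKM to 3.27 and 2.50 FPKM (log2 difference -2.27, SE 0.16, adjusted p = 0.0024). EPHB3, encoding another ephrin-B receptor, fell from 24.6 and 31.2 FPKM to 7.99 and 7.72 FPKM (log2 difference -1.70, SE 0.14, adjusted p = 0.0037). In each of the 3 genes the groups were several-fold apart. EPHA2, encoding the principal ephrin-A1 receptor and the most abundant Eph transcript with DMSO, was at 80.9 and 67.2 FPKM with DMSO and at 38.2 and 32.3 FPKM with IWP2 (log2 difference -1.05, SE 0.13, adjusted p = 0.011).

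The receptors that rose were EPHB6, EPHB1 and EPHA1. EPHB6, which encodes a member without kinase activity, went from 6.60 and 4.26 FPKM to 29.2 and 30.4 FPKM (log2 difference 2.28, SE 0.19, adjusted p = 0.0040). EPHB1, encoding a receptor of ephrin-B2, went from 0.770 and 0.872 FPKM to 6.09 and 6.22 FPKM (log2 difference 1.97, SE 0.14, adjusted p = 0.0025). EPHA1, encoding an ephrin-A1 receptor, went from 20.6 and 20.2 FPKM to 34.4 and 33.4 FPKM (log2 difference 0.70, SE 0.08, adjusted p = 0.0093). Each of these genes was higher in both IWP2 libraries than in either DMSO library.

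EPHB4, whose product is the venous partner of ephrin-B2, was abundant and nearly level. It was at 61.4 and 57.9 FPKM with DMSO and at 62.2 and 59.4 FPKM with IWP2 (log2 difference 0.03, 95% interval -0.18 to 0.24, adjusted p = 0.86). The ratio of EFNB2 to EPHB4 transcripts was 0.147 and 0.136 in the DMSO libraries and 0.342 and 0.344 in the IWP2 libraries. Leaving out libraries removed receptor calls as well. Without IWP2 library 2 no receptor was called, and without IWP2 library 1 EPHA4 was the only receptor called. EPHA1 and EPHA2 were lost without DMSO library 1, and EPHB2 as well as these without DMSO library 2. Without a filter on low values EPHA2, EPHB3 and EPHB6 were not called (adjusted p = 0.080, 0.052 and 0.060).

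**Figure D3:**
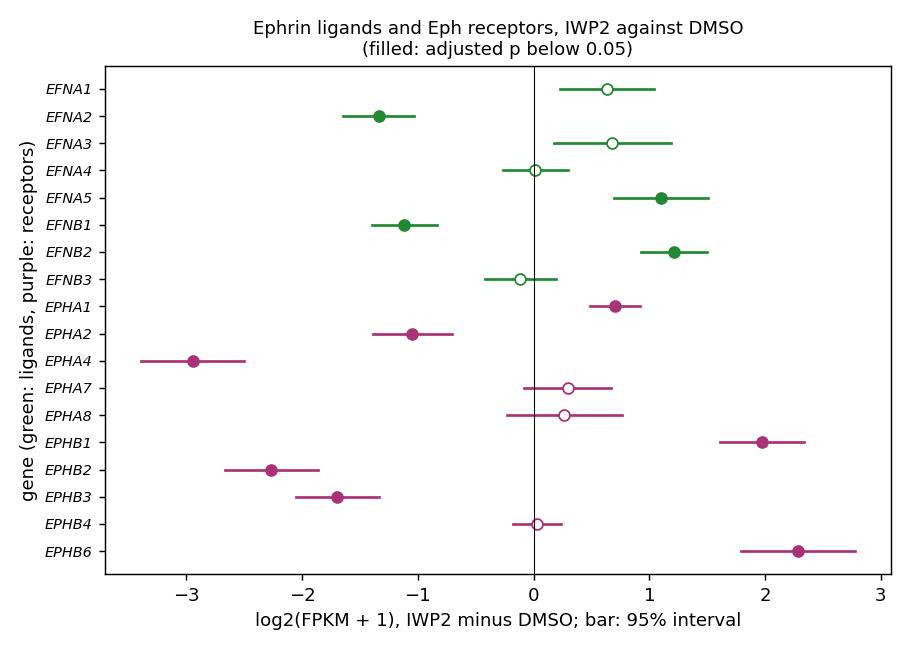
Difference in log2(FPKM + 1), IWP2 minus DMSO (x axis), with 95% intervals for the 8 ligands (green) and the 10 tested receptors (purple), listed on the y axis. Filled points passed an adjusted p of 0.05, and calls lie on both sides of 0 in both families.

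**Figure D4:**
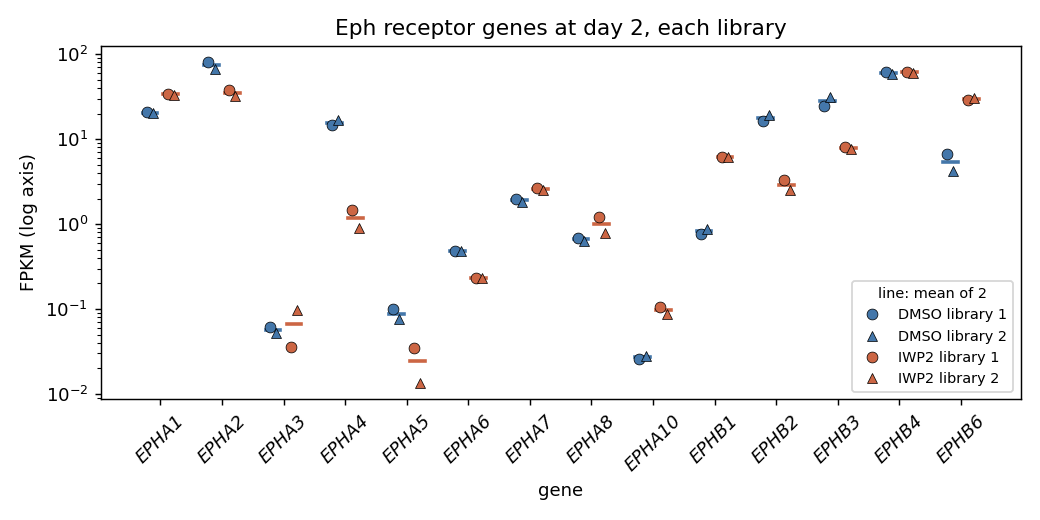
FPKM on a log axis (y axis) of the 14 Eph receptor genes (x axis) in each DMSO library (blue) and IWP2 library (orange), with a line at the mean of 2. EPHA4, EPHB2 and EPHB3 are lower with IWP2, EPHB6 and EPHB1 are higher, and EPHB4 is level.

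Partners of the ligands in signaling and shedding also moved in both directions. Of 23 partners of the ligands (reverse-signaling adaptors, co-receptors and proteases that shed ephrins), 22 were tested, 4 rose and 3 fell, which is 7 of 22 beside 13.2% of all tested rows, with a median log2 difference of 0.35. SRC, of the kinase family that phosphorylates ephrin-B tails, fell from 57.4 and 66.0 FPKM to 26.2 and 24.6 FPKM (log2 difference -1.25, SE 0.10, adjusted p = 0.0037). ADAM19, a membrane metalloprotease, fell from 126 and 112 FPKM to 58.6 and 54.8 FPKM (log2 difference -1.06, SE 0.10, adjusted p = 0.0046). NGFR, a co-receptor in ephrin-A reverse signaling, rose from 1.48 and 1.39 FPKM to 4.67 and 5.02 FPKM (log2 difference 1.26, SE 0.14, adjusted p = 0.0076). PARD6A, encoding a polarity protein whose family binds ephrin-B1, rose from 0.958 and 0.346 FPKM to 3.12 and 3.14 FPKM (log2 difference 1.35, SE 0.23, adjusted p = 0.024). The other calls of this list had log2 differences between -0.65 (SDCBP) and 0.75 (GRIP1). Both encode PDZ proteins that bind the end of the ephrin-B tail. ADAM10, the best known ephrin protease, was at 100.2 and 87.3 FPKM with DMSO and at 78.7 FPKM in both IWP2 libraries and was not called (adjusted p = 0.17). No partner was called without IWP2 library 1 or IWP2 library 2, 1 rose and 2 fell without DMSO library 1, and 2 fell without DMSO library 2.

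Of 27 effectors that act below Eph receptors, 26 were tested, 1 rose and 3 fell. These 4 of 26 are near the share of 13.2% over all tested rows, so the count does not set the effectors apart. PIK3R1, a regulatory subunit of PI3-kinase, fell from 7.65 and 8.32 FPKM to 2.48 and 1.78 FPKM (log2 difference -1.53, SE 0.16, adjusted p = 0.0069). RHOA, the small GTPase through which ephrin signals reach actin, was at 213 and 216 FPKM with DMSO and at 207 and 208 FPKM with IWP2. The median log2 difference of the list was -0.01, and no effector was called when any of the 4 libraries was left out.

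The ligands were read against the state of the cells. Of 13 Wnt target genes, 10 fell and none rose with IWP2, among them SP5 from 53.2 and 47.0 FPKM to 0.379 and 0.363 FPKM. All 11 tested primitive streak and mesoderm genes fell, with a summed level of 1247 and 1577 FPKM against 192 and 212 FPKM. Of 9 pluripotency genes 6 rose, TDGF1 fell, and LIN28A and NANOG were not called. Their summed level was 1455 and 1284 FPKM with DMSO against 2630 FPKM in both IWP2 libraries. POU5F1 alone was at 751 and 571 FPKM with DMSO and at 1854 and 1844 FPKM with IWP2. It made up most of the difference in that sum. Of 6 tested definitive endoderm genes 5 fell. Beside these counts, 5.81% of all tested rows were called higher and 7.35% lower. With DMSO and IWP2 as the only groups, every called gene differs along the same contrast, whichever way it moved. The part of these markers in the values of EFNB2, EFNA5, EFNA2 and EFNB1 was not tested.

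EFNB2 is often used as an arterial marker, so endothelial genes are given beside it. Of 10 endothelial markers 5 passed the filter, of which TEK fell and NOS3, TIE1, SOX7 and ESAM were not called. PECAM1, CDH5, ERG and EMCN did not exceed 0.492 FPKM in any library. CLDN5, also below the filter, was at 0.489 and 0.399 FPKM with DMSO and at 0.260 and 0.662 FPKM with IWP2, which overlapped. NOS3 encodes the endothelial nitric oxide synthase. It was at 3.82 and 3.37 FPKM with DMSO and at 2.71 and 2.32 FPKM with IWP2 (not called, adjusted p = 0.17). TIE1 was at 2.56 and 1.09 FPKM against 0.708 and 0.988 FPKM (not called, adjusted p = 0.29). TEK, the angiopoietin receptor gene, fell from 3.53 and 3.14 FPKM to 1.44 and 1.82 FPKM (adjusted p = 0.048). The 10 genes together summed to 12.05 and 10.7 FPKM with DMSO and 5.94 and 7.66 FPKM with IWP2. Of 7 tested arterial genes 4 fell (GJA4, HEY2, NRP1 and CXCR4) and none rose, whereas EFNB2 rose. Of all tested rows, 7.35% were called lower and 5.81% higher. The paper counts NRP1 among its mesenchymal genes, and which cells carried these transcripts was not tested. UNC5B, a netrin receptor of the arterial list, was at 13.1 and 15.7 FPKM with DMSO and at 22.6 and 20.4 FPKM with IWP2 (adjusted p = 0.053).

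Markers of other lineages were called in both directions, beside 13.2% of all tested rows called. Of 5 tested neural crest genes 2 rose and 2 fell. Of 8 tested amnion and trophoblast genes, 2 rose (KRT7 and GABRP) and 2 fell (CDX2 and HAND1). OTX2 fell and PAX6 was not called among the 2 tested neural ectoderm genes, and the other 6 stayed below the filter. The mesoderm list shares the gene T, which fell, with the Wnt target list. The amnion list shares HAND1 with the mesoderm list and CDX2 with the Wnt target list. The arterial list shares SOX17 and CXCR4 with the endoderm list. These lists are thus not separate lines of evidence.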

How the data were processed

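RNA was extracted with Trizol and libraries were made with the Illumina TruSeq RNA kit. The deposited values are FPKM per gene and library, made by the authors. The submitters' processing notes name BWA, Bowtie and RSEM (no versions) and hg19, but 99.83% of the 55723 row IDs shared with GENCODE release 29 have its GRCh38 coordinates, so positions are GRCh38. Columns without IWP2 were assigned to DMSO, and library numbers are those of the column headers. FPKM summed to between 616400 and 653900 per library. The depth is unknown. A rough estimate came from the most common ratio of low values in each library to those in IWP2 library 1, searched within a limited range. It put the depths between 0.812 and 1 of that of IWP2 library 1.

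Rows with a mean of at least 0.5 FPKM were tested with limma 3.58.1 in R 4.3.3 (intensity trend, group as the only term) on log2(FPKM + 1), which understates changes of low genes, with adjustment over all 15980 rows. The fit was checked on simulated data. The text names all ligands, Eph receptors called or of at least 5 FPKM, partners and effectors called with an absolute log2 difference of at least 1, and up to 4 markers a list by level. RHOA, ADAM10, SDCBP, GRIP1, UNC5B, GJA4, HEY2, PAX6, OTX2, KRT7, GABRP, CDX2, TDGF1, T, AC234582.1 and the endothelial markers were chosen after the data were seen. So were the CCAAT and GC boxes. The members and lists were chosen with earlier results of these data known. Alternatives were other pseudocounts, filters and scalings, no trend, a replicate block and leaving out each library.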

Additional observations from a re-analysis of the deposited data

How the results depend on the processing

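The direction of EFNB2, EFNA5, EFNA2 and EFNB1 was kept in all 12 alternative fits. With pseudocounts of 0.1 or 0.5, a mean of at least 1 FPKM, median-of-ratios rescaling and limma without trend, the calls of the 8 ligands did not change. Quantile normalization added EFNA1 (log2 difference 0.71). Without a filter on low values (28917 rows), 118 genes were called higher and 263 lower, in place of 929 and 1175. The ligands called higher fell to 1 because EFNA5 (1.10) was not called. The other 3 ligand calls passed only narrowly, with adjusted p = 0.0495 for EFNB2, 0.0487 for EFNA2 and 0.0458 for EFNB1. The receptors called fell to 2 higher and 2 lower, the partners to 0 higher and 1 lower, and the effectors to 0 higher and 1 lower. Leaving out 1 library at a time, so that the lone library of a group was assumed to vary like the other group, gave 18 to 286 genes higher and 76 to 410 lower. Ligands called then ran from 0 to 1 higher and 0 lower, receptors from 0 to 2 higher and 0 to 3 lower, partners from 0 to 1 higher and 0 to 2 lower, and effectors were 0 in both directions. The ligand differences ran from 1.12 to 1.30 for EFNB2, 0.93 to 1.27 for EFNA5, -1.42 to -1.26 for EFNA2, -1.16 to -1.08 for EFNB1 and, with a change of sign, -0.082 to 0.12 for EFNA4, as EPHB4 did from -0.014 to 0.070. Adjusted p-values of the 4 called ligands lay between 0.040 (EFNB2 without DMSO library 1) and 0.14 in these fits. With the replicate block, 842 genes were higher and 1059 lower and no ligand or receptor call changed. Same-numbered libraries deviated together only weakly (r = 0.14 across 15980 rows), and the labels do not say what the numbers share. The table gives no read counts, so the counting error of low genes could not be given.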

Other observations

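The genes beside the chromosome 1 ligands were also read. ADAM15, a metalloprotease gene that ends just before EFNA4, was at 9.75 and 8.90 FPKM in the DMSO libraries and at 5.44 and 8.27 FPKM in the IWP2 libraries (log2 difference -0.42, 95% interval -0.93 to 0.09, adjusted p = 0.25). SLC50A1, a sugar transporter gene that follows EFNA1, was at 31.9 and 32.4 FPKM against 30.7 and 31.1 FPKM (log2 difference -0.06, 95% interval -0.26 to 0.15, adjusted p = 0.70). DPM3, a subunit gene of the dolichol-phosphate mannose synthase, was at 66.0 and 76.8 FPKM against 66.9 and 74.2 FPKM (log2 difference -0.02, 95% interval -0.30 to 0.27, adjusted p = 0.95). None of these neighbors was called, and neither was any of the 3 ligands between them. The intervals of EFNA1 (0.23 to 1.04) and EFNA3 (0.18 to 1.18) lay above 0 before adjustment, and that of EFNA4 (-0.27 to 0.30) did not. Such intervals were common, since 4584 of the 15980 tested rows had an unadjusted p below 0.05 in either direction. Further along, the antisense gene AC234582.1 also had an interval above 0 (0.28 to 1.39) and was not called (adjusted p = 0.070).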
